A study of Mus musculus with 8 samples.

Results

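Procollagen folding and propeptide processing was followed through 10 genes, chosen by name, in whole spines of mice with proteoglycan-induced spondylitis (PGISp) and of control mice. The choice was made with earlier results of these data known. The array carried 16 probes for 9 of the 10 genes, out of 16593 genes with a symbol, and no listed probe for Ppib. All 8 mice were BALB/c with a knockout of IL4, so the controls lacked interleukin-4 too. The 4 PGISp mice had been injected 3 times, from an age of 3 months, with 2 mg of a human cartilage extract in an adjuvant, were female, and were chosen for severe peripheral arthritis, while the arthritis of the spine itself was not scored. The 4 control mice had received no extract, and their sex and age are not given separately. Spines were taken at week 12, and RNA of each was read on 1 Illumina Mouse Ref-8 bead array.

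Fibrillar procollagens are folded in the endoplasmic reticulum (ER) and trimmed outside the cell. Prolyl 4-hydroxylase, built of a catalytic alpha subunit (P4ha1, P4ha2 or P4ha3) and the beta subunit P4hb, makes the hydroxyproline that holds the triple helix together. P3h1, Crtap and the cyclophilin Ppib form a complex that modifies prolines of the alpha chains and helps them fold, and Serpinh1 is a collagen-specific chaperone that binds the finished helix. After secretion Bmp1 removes the carboxy-terminal propeptide, which lets fibrils form, and Pcolce and Pcolce2 enhance that cleavage. Loss of several of these genes is a known cause of brittle bone disease.

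The deposited log2 values had a background of 6.73 to 6.80 per array, the level under which 95% of 1305 probes for smell and pheromone receptors fell, and 11942 to 14114 probes per array lay above it. Arrays correlated at 0.981 to 0.994 within groups and 0.972 to 0.99 between them. Probes with a mean above 6.77, the median of all values, were tested, with the brightest probe standing for a gene, over 9608 genes. Control B and F stood apart from the other arrays in the Y-linked Eif2s3y (8.57 and 8.33, against 6.49 to 6.91 elsewhere) and read lowest for Xist, and a difference in sex between the groups cannot be fully told apart from the treatment. Spines are named by the position of their array, with PGISp at A, C, E and G and control at B, D, F and H. In whole spines, more cells of a type and more RNA per cell cannot be told apart.

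Of the 10 genes 8 could be tested. The chaperone Serpinh1 and the complex member Crtap were higher in PGISp spines and the enhancer Pcolce2 was lower, while P3h1, P4ha1, P4ha2, Pcolce and Bmp1 did not pass the test. A gene was called at a Benjamini-Hochberg adjusted p under 0.1 in limma over all 9608 genes. The 3 calls among 8 genes (37.5%) stand beside 10.8% called among all genes tested, made up of 6.26% higher and 4.56% lower. Since the set was chosen with earlier results known, these shares describe the set and do not test it. At an adjusted p under 0.05 none of the 8 genes was called, against 6.01% of all genes, and at an unadjusted p under 0.05 the count was 4, against 22.6% of all genes. The median log2 fold change of the 8 genes was 0.14, against 0.00 over all genes, and 0.03 when PGISp C was left out. In 3 of the 8 genes the groups did not overlap, which was so in 13.4% of all genes. PGISp was the higher group in all 3, as in 7.77% of all genes, and a separation with PGISp lower, found in 5.67%, occurred in none of the 8. With every probe above the filter tested, 4 of 12 member probes were called, against 10.2% of 12492 probes.

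**Figure D1:**
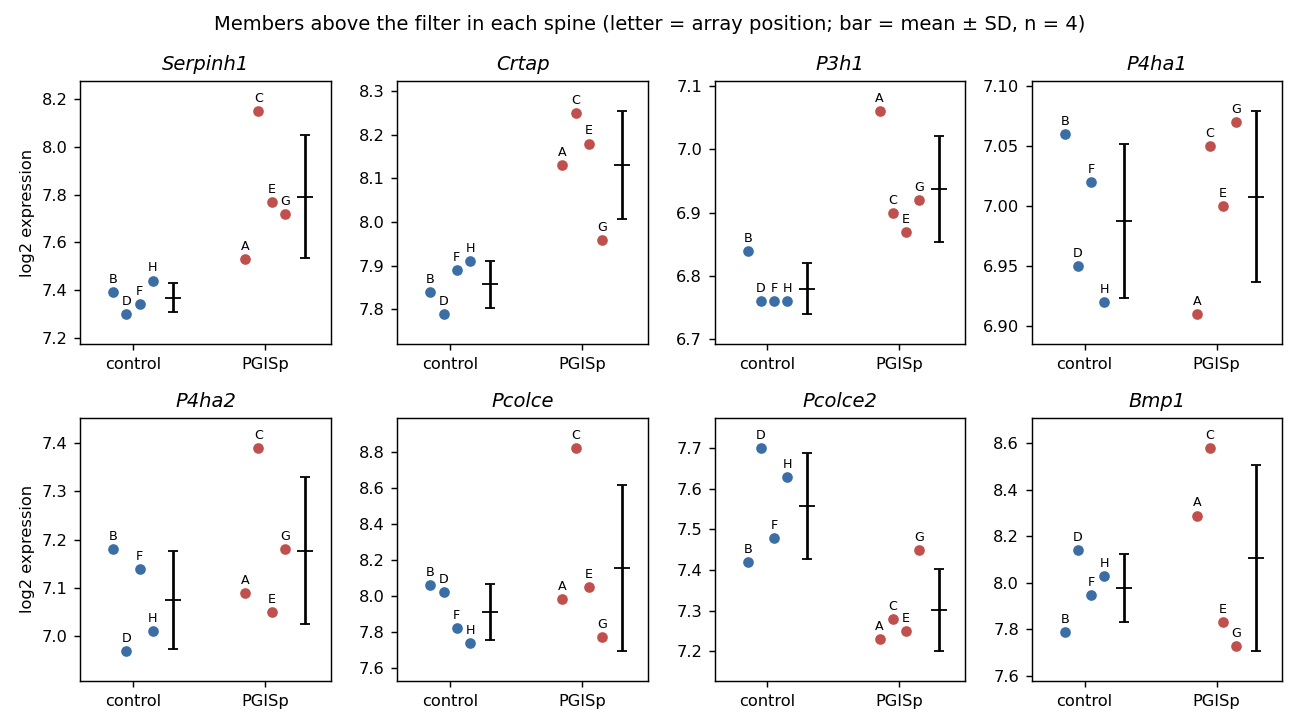
Log2 expression (vertical axis, a separate scale for each gene) of the 8 measured genes in each spine, with blue points for control and red points for PGISp spines, letters for array positions and bars for the mean ± SD of 4 spines. Every PGISp spine lies above every control spine for Serpinh1, Crtap and P3h1, and PGISp C is the highest spine for 5 of the 8 genes.

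Serpinh1 had the largest change. Its log2 value was 7.39, 7.30, 7.34 and 7.44 in control B, D, F and H and 7.53, 8.15, 7.77 and 7.72 in PGISp A, C, E and G. The control spines lay close together, while the PGISp spines were spread, with A the nearest to the controls and C far above. The means were 7.37 ± 0.06 and 7.79 ± 0.26 (SD, n = 4 each), so Serpinh1 rose 1.34-fold (0.42 on the log2 scale, standard error 0.11, limma adjusted p = 0.0578). The spread between spines was 4.35 times as large in the PGISp group. The call was lost without control B, D or F or PGISp E, by the unmoderated test of the study's methods, and when B and F were both left out (adjusted p from 0.109 to 0.311). With B and F left out the log2 fold change was still 0.42, over 2 control spines.

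Crtap, the helper subunit without catalytic activity, read 7.84, 7.79, 7.89 and 7.91 in control B, D, F and H and 8.13, 8.25, 8.18 and 7.96 in PGISp A, C, E and G. The groups did not overlap, although PGISp G was only just above control H. Crtap rose 1.21-fold, from 7.86 ± 0.05 to 8.13 ± 0.12 (SD, n = 4 each, log2 fold change 0.27, standard error 0.07, adjusted p = 0.0522 in limma). Its other probe gave a difference of 0.19 with overlapping groups (PGISp A at 7.88, below control B and H at 7.89) and was not called when every probe was tested (adjusted p = 0.265). The call of the brighter probe was lost without control B, D or F or PGISp C or E, with adjacent arrays as a block, by the unmoderated test of the study's methods, and when B and F were both left out (adjusted p from 0.107 to 0.285). With the mean of both probes the change was 0.23 and not called (adjusted p = 0.1 after rounding), and with B and F left out it was 0.28.

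P3h1, the enzyme that works with Crtap, was dim. Its brightest probe read 6.84 in control B and 6.76 in each of control D, F and H, against 7.06, 6.90, 6.87 and 6.92 in PGISp A, C, E and G. Every PGISp spine was above every control spine, with the highest in A and not in C. The log2 fold change was 0.16 (standard error 0.06, 95% interval 0.02 to 0.29), which did not pass the test (adjusted p = 0.163 in limma). Both other P3h1 probes were below the filter, with differences of 0.09 each and 4 and 2 of 8 arrays above background. Changes of Crtap and P3h1 differed by 0.12 (standard error 0.09), within the spread (exact permutation test, two-sided, p = 0.286). Ppib, the third gene of the complex, was not measured.

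The alpha subunits of prolyl 4-hydroxylase showed no change past the test. P4ha1 read 7.06, 6.95, 7.02 and 6.92 in control B, D, F and H and 6.91, 7.05 and 7.07 in PGISp A, C and G, with PGISp E between control D and F. The highest spine (PGISp G) and the lowest (PGISp A) were both PGISp. The log2 fold change was 0.02, with a 95% interval from -0.12 to 0.16, or from 0.92 to 1.12 as a ratio (adjusted p = 0.878 in limma). P4ha2 read 7.18, 6.97, 7.14 and 7.01 in control B, D, F and H and 7.09, 7.39, 7.05 and 7.18 in PGISp A, C, E and G. PGISp C stood apart above the controls, and the other spines overlapped. Its log2 fold change was 0.10, with an interval from -0.09 to 0.30 (adjusted p = 0.534). P4ha3 read 6.56 to 6.79 and was above background on 0 of 8 arrays, so no change was measured for it. Both measured alpha subunits lay close to background, where a bead array can understate a change.

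**Figure D2:**
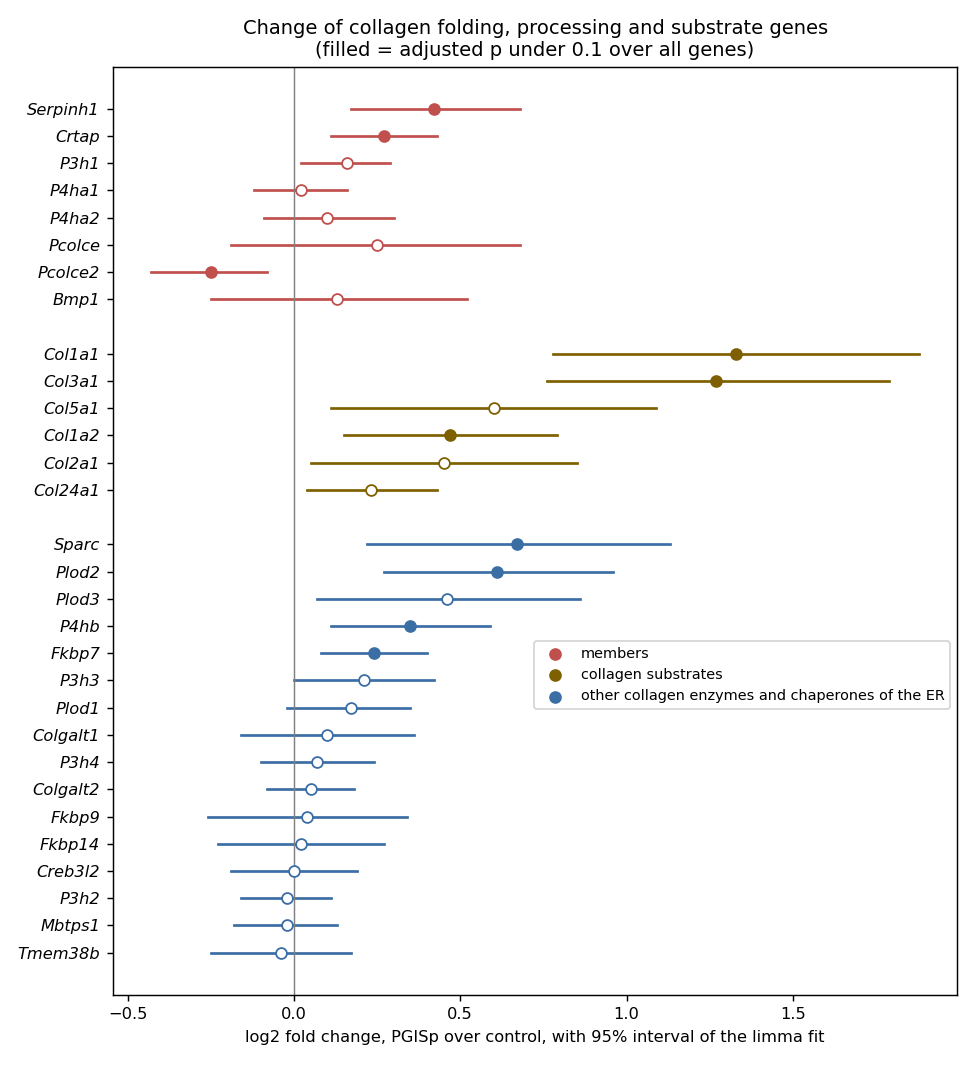
Log2 fold change of PGISp over control (horizontal axis) with its 95% interval in limma for the 8 members, 6 fibrillar collagens and 16 genes listed as other collagen enzymes and ER chaperones (Sparc of bone matrix among them), with filled points for an adjusted p under 0.1. P4ha1 lies at 0.02 and Serpinh1 at 0.42, while Col1a1 and Col3a1 lie at 1.33 and 1.27.

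Among the genes of propeptide removal, Pcolce2 passed the test and Bmp1 and Pcolce did not. Bmp1, the procollagen C-proteinase, read 7.79, 8.14, 7.95 and 8.03 in control B, D, F and H and 8.29, 8.58, 7.83 and 7.73 in PGISp A, C, E and G. PGISp A and C were above all controls, whereas PGISp G was below all of them. The log2 fold change of 0.13 (standard error 0.17) was within this spread (adjusted p = 0.702 in limma), and it was -0.02 without PGISp C. Of its 3 dimmer probes, 2 above the filter gave differences of 0.17 and 0.14, again with PGISp C and A highest, and the other was above background on 0 of 8 arrays.

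Pcolce, the main enhancer of Bmp1, read 8.06, 8.02, 7.82 and 7.74 in control B, D, F and H and 7.98, 8.82, 8.05 and 7.77 in PGISp A, C, E and G. PGISp C was the only spine above the controls. The log2 fold change was 0.25 (standard error 0.19, adjusted p = 0.502 in limma), and 0.03 without PGISp C.

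Pcolce2, its relative, was the member that fell. The brighter of its 2 probes read 7.42, 7.70, 7.48 and 7.63 in control B, D, F and H and 7.23, 7.28, 7.25 and 7.45 in PGISp A, C, E and G. PGISp A, C and E were below every control, and PGISp G was above control B. Pcolce2 was lower by 1.19-fold, from 7.56 ± 0.13 to 7.30 ± 0.10 (SD, n = 4 each), and fell by 0.25 on the log2 scale (standard error 0.08, adjusted p = 0.094 in limma). On the other probe all PGISp spines (7.02 to 7.25) were below all controls (7.37 to 7.53), with a difference of -0.28 and an adjusted p of 0.0443 when every probe was tested. With the mean of both probes the change was -0.27 and called (adjusted p = 0.0331 in limma). The call of the brighter probe was lost when PGISp A, C or E or control D, F or H was left out, when both B and F were (log2 fold change -0.36), without the filter on dim probes, with array position as a covariate, with array weights and by the unmoderated test of the study's methods (adjusted p from 0.117 to 0.196). Changes of Pcolce and Pcolce2 differed by 0.50 (standard error 0.28), which did not pass the exact permutation test (two-sided, p = 0.114, adjusted p = 0.186 over 13 pairs). Without PGISp G this pair and Pcolce2 against Bmp1 passed (0.68 and -0.56, adjusted exact p = 0.0464 for each).

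The 250 bases before the RefSeq start (GRCm38.p6) of the 3 called genes are shown, since 2 of them rose and 1 fell, with motif matches on either strand in capitals. Serpinh1 lies at chr7:99353240-99353489 on the minus strand, Crtap at chr9:114390713-114390962 on the minus strand and Pcolce2 at chr9:95637378-95637627 on the plus strand.
Serpinh1: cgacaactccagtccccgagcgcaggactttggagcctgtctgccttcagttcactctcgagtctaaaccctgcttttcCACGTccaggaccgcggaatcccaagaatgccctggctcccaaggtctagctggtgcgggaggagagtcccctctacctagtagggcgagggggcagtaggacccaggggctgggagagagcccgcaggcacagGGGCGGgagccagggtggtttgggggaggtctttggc
Crtap: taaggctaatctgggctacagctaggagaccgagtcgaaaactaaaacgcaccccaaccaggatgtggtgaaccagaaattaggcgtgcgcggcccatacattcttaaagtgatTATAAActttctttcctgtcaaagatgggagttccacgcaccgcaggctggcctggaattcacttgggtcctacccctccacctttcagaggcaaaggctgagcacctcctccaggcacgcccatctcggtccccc
Pcolce2: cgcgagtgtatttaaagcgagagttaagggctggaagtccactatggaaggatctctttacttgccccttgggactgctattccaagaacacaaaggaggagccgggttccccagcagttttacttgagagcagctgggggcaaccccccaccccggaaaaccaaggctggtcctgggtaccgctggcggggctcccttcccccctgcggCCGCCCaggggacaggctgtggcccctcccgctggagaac
The motifs searched were the CCAAT box (CCAAT), the GC box (GGGCGG), the TATA box (TATAAA), a hypoxia response core (ACGTG), a heat shock element (GAANNTTC) and the ER stress element, a CCAAT and a CCACG held 9 bases apart, which overlaps the CCAAT box. They occur in 33.8%, 32.7%, 12.4%, 16.6%, 6.69% and 0.113% of 32851 promoters of that length. Serpinh1 held 1 GC box and 1 hypoxia response core, Crtap 1 TATA match, 136 bases before the start, and Pcolce2 1 GC box, so the 2 genes that rose shared none of these motifs in this window. Of the 9 members with an entry, 8 held a GC box, 5 a hypoxia response core and none a heat shock element or an ER stress element. A member was counted where any of its entries matched, while the shares are per promoter, so their units are unlike. These matches describe the letters only.

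The members did not follow a single pattern over the spines. Centred on each gene's own mean and averaged over the 8 genes, the control spines stood at -0.08 to -0.06, PGISp C at 0.30, and PGISp A, E and G at 0.02, -0.01 and -0.03. PGISp C was the highest spine for 5 of the 8 genes (Serpinh1, Crtap, P4ha2, Pcolce and Bmp1), and such a maximum at C was found in 16.9% of all genes. In 7 of the 8 genes the PGISp spines varied more than the controls, the exception being Pcolce2, and in all genes this share was 63.7%. The 5 genes outside the set with the profile most like this mean, by root mean square difference over the 8 arrays, were Ch25h, Ldah, Swap70, Fbxw8 and Anpep, at 0.032 to 0.040, where the profile's own root mean square was 0.116.

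**Figure D3:**
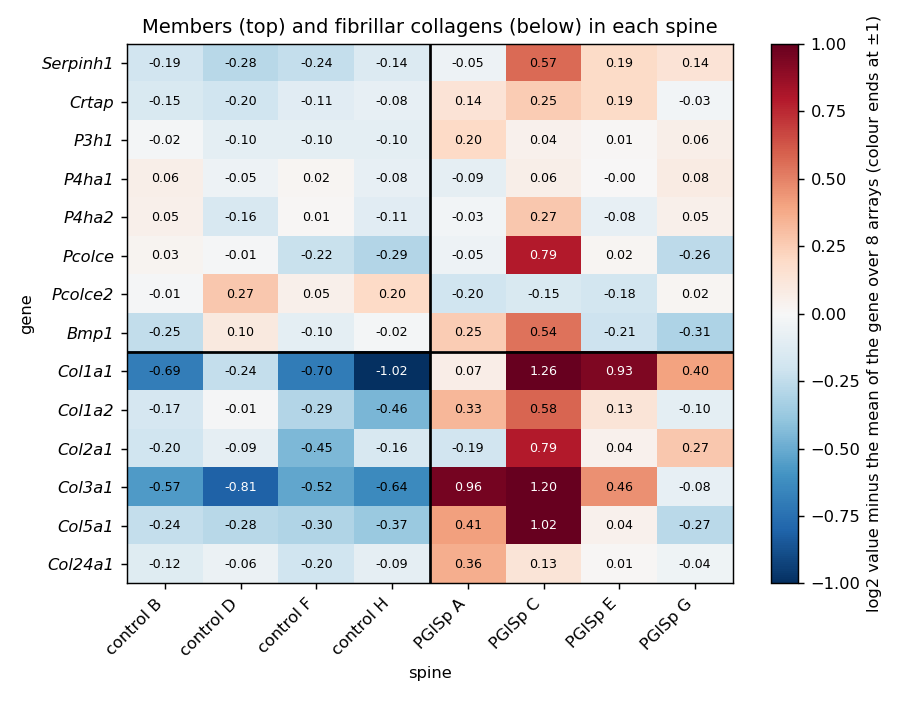
Log2 value minus the gene's mean over 8 arrays, as colour and number, for the 8 members (upper rows) and 6 fibrillar collagens (lower rows) in each spine (columns). PGISp C is red in most rows, Pcolce2 is below its mean there at -0.15, and PGISp G lies at -0.26 for Pcolce and -0.31 for Bmp1.

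The collagens, the substrates of these genes, included changes larger than any of theirs. Of 11 fibrillar collagen genes listed 6 were tested, while Col5a2, Col5a3, Col11a1, Col11a2 and Col27a1 lay below the filter. Of the 6 tested 3 rose and none fell, with a median log2 fold change of 0.53. Col1a1, a chain of type I collagen, rose 2.51-fold (adjusted p = 0.0146 in limma) and Col3a1, the chain of type III collagen, 2.42-fold (adjusted p = 0.0136). These values are for the brightest probe of each gene. With the mean of its probes Col3a1 rose less, by 0.32 more than Serpinh1 on the log2 scale, against 0.85 for the brightest probe. Col1a2, the partner of Col1a1, rose 1.38-fold (adjusted p = 0.0872), a call that was lost without 6 of the single arrays (PGISp A, C or E or control B, F or H). Col5a1, Col2a1 and Col24a1 had ratios of 1.51, 1.37 and 1.17 and did not pass (adjusted p from 0.143 to 0.17). Col1a1 and Col3a1 passed without any single array, but not with B and F both left out (adjusted p = 0.152 and 0.119) or by the unmoderated test of the study's methods (adjusted p = 0.108 and 0.103).

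Whether Col1a1 and Col3a1, the collagens with the largest changes, changed unequally to the folding genes was tested on the difference of log2 values on each array. These pairs were chosen with the changes known, so their p-values describe the chosen pairs and are no independent test. Col1a2 and Col2a1, whose log2 fold changes of 0.47 and 0.45 were near that of Serpinh1, were in no tested pair. Of 18 pairs listed 13 could be tested, by a two-sided exact permutation test over 70 splits whose smallest p is 0.0286, and 7 pairs reached that p (adjusted p = 0.0531 over the 13 pairs, with no overlap between groups). Col1a1 rose by 0.90 more than Serpinh1 on the log2 scale (standard error 0.24), by 1.31 more than P4ha1 (0.30), by 1.08 more than Pcolce (0.20) and by 1.19 more than Bmp1 (0.32). Col3a1 rose by 0.85 more than Serpinh1 (0.27) and by 1.02 more than Pcolce (0.21). When the mean of a gene's probes was used, Col3a1 differed by 0.32 from Serpinh1 (adjusted p = 0.124) and by 0.50 from Pcolce. Within the set, Serpinh1 rose by 0.40 more than P4ha1 (standard error 0.12). With 1 array left out the adjusted p was 0.106 for Serpinh1 against P4ha1 (without PGISp C), for Col1a1 against Serpinh1 (without PGISp A, C or E or control H), and for Col1a1 against Bmp1 and Col3a1 against Serpinh1 (without any one control). With B and F both left out the 7 differences were 0.35 to 1.27, and none passed, which says nothing of their stability, since 15 splits allow no p below 0.0667. The other 6 pairs did not pass (adjusted p from 0.186 to 0.571), among them P4ha1 against P4ha2 (-0.08, standard error 0.07), Pcolce2 against Bmp1 (-0.39, standard error 0.23) and Serpinh1 against Pcolce (0.18, standard error 0.16). The scale of a bead array is compressed near background, and the share of this in a difference between a bright and a dim probe was not tested.

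**Figure D4:**
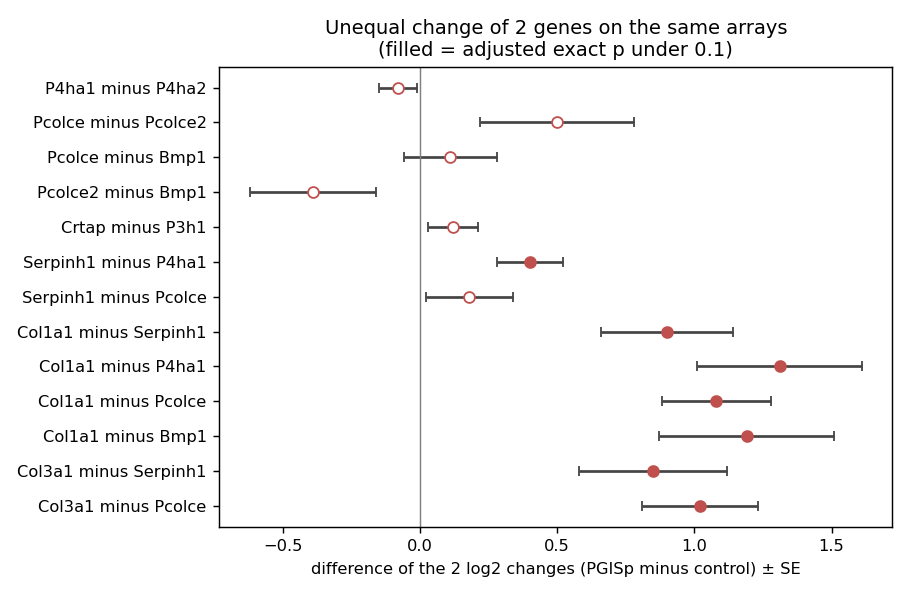
Difference of the log2 changes of 2 genes (horizontal axis) ± SE for the 13 pairs tested over 4 control and 4 PGISp spines, with filled points for an adjusted exact p under 0.1. The 6 pairs of a collagen with a folding or processing gene lie between 0.85 and 1.31.

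Among 16 genes listed as other collagen enzymes and chaperones of the ER 4 rose, none fell and 12 did not pass (median 0.08). Not all of them are enzymes or chaperones of the ER, and Sparc, 1 of the 4, is also on the osteoblast list. Plod2, which hydroxylates lysines of the collagen telopeptides, rose 1.53-fold (adjusted p = 0.0479 in limma), and Sparc, a collagen-binding protein of bone matrix, 1.59-fold (adjusted p = 0.086). P4hb, the beta subunit that the alpha subunits need, rose 1.27-fold, from 10.76 ± 0.16 to 11.11 ± 0.19 (SD, n = 4 each, adjusted p = 0.0887), and Fkbp7, a prolyl isomerase, 1.18-fold (adjusted p = 0.0835). P4hb also serves as a general disulphide isomerase, and its change was not tested against that of P4ha1. The calls were lost without control B, F or H for Plod2, without these or PGISp C or E for P4hb, and for Sparc without PGISp A or E or any one control, and for Fkbp7 without any one array other than PGISp G.

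Of 9 general ER chaperones 4 rose and none fell (median 0.24). Hsp90b1, an ER chaperone of the heat shock family, rose 1.59-fold (adjusted p = 0.0044 in limma) and also passed with B and F both left out (adjusted p = 0.068). The disulphide isomerases Pdia4 and Pdia3 rose 1.46-fold and 1.44-fold (adjusted p = 0.0144 and 0.0311), and Ero1b, an oxidase that serves them, 1.17-fold (adjusted p = 0.0669). Of 5 other cyclophilins 2 rose and none fell (median -0.03). They were the secretory pathway cyclophilin Ppic, at 1.71-fold (adjusted p = 0.0416), and the cytosolic Ppid, at 1.35-fold (adjusted p = 0.0133). Of 11 genes of procollagen export 2 rose and none fell (median 0.10). They were Kdelr2, a receptor that returns ER proteins, at 1.23-fold (adjusted p = 0.0203), and the coat protein Sec13, also at 1.23-fold (adjusted p = 0.0585). Ero1b lost its call without 6 of the single arrays (all but PGISp A and G), Ppic without control B or F or PGISp E, and Sec13 without control D or F or PGISp E.

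Of 10 substrates and partners of Bmp1 2 rose and none fell (median 0.16). Lox, whose proenzyme Bmp1 activates and which cross-links collagen, rose 2.50-fold (adjusted p = 0.00912 in limma), and the proteoglycan Dcn 1.35-fold (adjusted p = 0.0384, lost without control F). Among the called genes of these 5 lists, Hsp90b1 was the one that passed with B and F both left out. By the unmoderated test of the study's methods Hsp90b1, Pdia4, Ppid, Kdelr2 and Lox passed. The other called genes of these lists, Pdia3 among them, did not pass that test (adjusted p from 0.111 to 0.233). The N-propeptide protease genes Adamts2 and Adamts14 had no listed probe and Adamts3, Tll1 and Tll2 lay below the filter. Of 9 other propeptide protease genes Furin alone was tested, with a log2 fold change of 0.31 (adjusted p = 0.133). Of 11 genes of the hypoxia response none passed (median -0.05), and the one with the smallest p was Slc2a1 (ratio 1.14, adjusted p = 0.199). Hypoxia is known to raise P4ha1 and P4ha2 in other settings, and its part in these spines was not tested.

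Some markers of other cell types also differed between the groups. Of 10 neutrophil markers 8 rose (Prtn3, Ctsg, Elane and Mpo by 1.85-fold to 2.27-fold), and their mean centred level was -0.42 to -0.20 in control and 0.21 to 0.42 in PGISp spines. Of 5 macrophage markers 2 rose (Fcgr3 1.58-fold and Cd14 1.40-fold, the latter lost without control B or H). Of 10 skeletal muscle markers 2 fell (Mb and Des, by 0.88 and 0.78 on the log2 scale, Des not without PGISp A or E or control B or F), with levels of -0.06 to 0.50 in control and -0.68 to 0.23 in PGISp spines. The muscle level was 0.38 and 0.50 in control B and F, against -0.06 and 0.17 in control D and H. Among cells that make collagen, 3 of 9 osteoblast markers, most of them also on the study's own osteoblast list, rose (Ibsp 2.62-fold, Pdpn 1.67-fold but not without control F, and Sparc), with levels of -0.33 to -0.04 and -0.07 to 0.54, and 1 of 11 fibroblast and tendon markers rose (Lum, 1.95-fold, but not without PGISp A or E or any one control), with levels of -0.13 to -0.07 and -0.03 to 0.37. PGISp C was the highest spine for both lists of collagen-making cells, and PGISp G the lowest PGISp spine. Of 5 cartilage markers 1 fell (Cytl1, by 0.79 on the log2 scale). The other 4 did not pass, with log2 fold changes from -0.08 (Acan) to 0.39 (Comp) and 0.45 (Col2a1). Of 4 cycling cell markers none passed (smallest p for Top2a, ratio 1.10, adjusted p = 0.482). Dmp1 of osteoblasts, Tnmd of tendon and Hapln1 and Matn1 of cartilage lay below the filter. With control B and F both left out, Mb, Des, Cd14, Pdpn, Lum and Sparc lost their calls (adjusted p from 0.137 to 0.379 in limma). Prtn3, Ctsg, Elane, Mpo, Fcgr3, Ibsp and Cytl1 kept theirs. Des, Cd14, Pdpn, Lum and Sparc also lost their calls by the unmoderated test of the study's methods (adjusted p from 0.138 to 0.233). The part of these cells in the changes of the folding genes was not tested.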

How the data were processed

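Spine RNA of 4 control and 4 PGISp mice was measured on 8 Illumina Mouse Ref-8 arrays. The submitters' processing notes name BeadStudio, and the study's methods name GenomeStudio followed by lumi, with a variance-stabilising transform and then robust splines. Versions are not given in the sources used here. The deposited values are log2 values that the authors had thus transformed and normalized, and sorted values of the arrays lay at most 0.005 apart. The 16 signal and detection columns of another deposited table name no spine and were not used. Of 25697 probes 2 had no values, a single gene symbol was listed for 23976, several for 0 and none for 1719, and 23960 symbols were updated through the gene identifier. No further normalization was made. The number of arrays limits the precision.

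Groups were taken from the treatment label and compared by moderated linear models in limma, and pairs of genes by exact permutation tests. The threshold, an adjusted p under 0.1, follows the false discovery rate named in the study. The members, lists and pairs were chosen with earlier results of these data known. All 10 members with every probe were named, every fibrillar collagen above the filter, up to 4 called genes with the largest change of each other list, or the gene with the smallest p where none was called, and the 5 genes most like the members. On simulated data of 9608 genes with 200 changed, limma called 34.1% of the genes set to 1.2-fold, 87.1% at 1.5-fold and 97.3% at 2-fold. Genes left as they were made up 10.2% of calls. The simulated noise was normal, independent between genes and equally spread in both groups. In the data 63.7% of genes varied more in PGISp spines, so these rates need not hold there. Alternatives were a fit without the filter, other choices of probe, a variance trend, weights or position of arrays, adjacent arrays as pairs, a stricter threshold, a t-test, and arrays left out. The t-test was the unpaired one of the study's methods, but adjusted by Benjamini-Hochberg and not by the study's multivariate permutation. Fits were run with limma 3.58.1 in R 4.3.3, and other steps and figures with pandas 2.3.3, numpy 2.4.6 and matplotlib 3.10.9 in Python 3.11.15.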

Additional observations from a re-analysis of the deposited data

Results flagged for a closer look

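Of 16 groups of 4 spines tested, 1 held a spine far from the others. Control B read 6.84 for P3h1, while the other control spines were all at 6.76, near background. Chance flags about 1 in 20 such groups.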

How the results depend on the processing

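Over all genes 1039 were called. This count was 411 by the methods' t-test, 577 at an adjusted p under 0.05, 163 without both control B and F, and 405 (without control F) to 1564 (without PGISp G) when a single array was left out. Of the members, 2 were called higher and 1 lower. The count higher was 1 with adjacent arrays as a block or with the mean of a gene's probes, 3 with a variance trend (P3h1 added, adjusted p = 0.0804), and 0 by the t-test, at 0.05 and without both control B and F. The count lower was 0 with array position as a covariate, with array weights, without the filter on dim probes, by the t-test, at 0.05 and without both control B and F. Leaving out a single array gave 0 to 2 higher and 0 to 1 lower. The median log2 fold change of the members was 0.03 to 0.21 with a single array left out, the lowest without PGISp C. Serpinh1, Crtap and Pcolce2 kept their direction in all 18 alternatives and their call in 11, 8 and 6. With a single array left out, Bmp1 ranged from -0.02 (without PGISp C) to 0.26 and P4ha1 from -0.00069 (without PGISp G, and -0.00061 without control H) to 0.06, so both, neither of them called, turned sign.

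Of the 13 pairs 7 were called, 0 without both control B and F, where 15 splits allow no p below 0.0667, and 4 to 9 with a single array left out (4 without control H). The labels name no pairing of PGISp with control spines, and the study's methods used an unpaired test, so no paired analysis was made. The block of adjacent arrays pairs positions on the chip only, and under it 895 genes were called and Crtap lost its call (adjusted p = 0.112). Where no cause is named, the cause was not tested.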
